A study of Rattus norvegicus with 29 samples.

Results

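Ageing of the hippocampus without drug was described from 15 male Fischer 344 rats on the control diet, 1 array per animal, taken from the 29 rats of the series. Of these, 8 were young control rats, aged 7 to 8 months when tissue was taken, and 7 were aged control rats of 21 to 22 months. The control animals ate a purified rodent diet that held no pioglitazone (PIO), which activates the nuclear receptor PPARγ. The other 14 rats, 8 young PIO and 6 aged PIO, received the drug in that diet. Its concentration was higher in the diet of aged than of young PIO rats. The study reports that the dose per body weight was nonetheless significantly lower in aged PIO rats. Aged rats of both diets were lost during the study, most of them on PIO. The members were chosen by their labels of age and diet alone. Each sample combined the dorsal and ventral ends of both hippocampi, set aside before the middle part was sliced for electrophysiology, and the animals had also been tested in a water maze. Fischer 344 is an inbred strain, so that the spread between rats does not stand for that of an outbred population, and age is confounded with the age at which the diet began (3 months in young and 17 months in aged rats).

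The hippocampus holds the granule cells of the dentate gyrus and the pyramidal cells of the CA fields, with interneurons, astrocytes, myelinating oligodendrocytes, microglia and vessels among them. Microglia are the resident phagocytes of brain tissue, and the complement, Fc receptor, lysosomal and antigen presentation genes they carry are known to be more abundant in aged brain. MHC class II molecules, whose invariant chain is encoded by Cd74, display peptides to helper T cells and are scarce in healthy young brain tissue. The meninges and the choroid plexus border the hippocampus and are easily taken along in a dissection.

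Signals are MAS5 intensities on a linear scale, scaled by the authors so that each array has the same trimmed mean. They were taken to log2, so that a log2 fold change of 1 is a factor of 2, and each fold change is aged minus young. The linear model of limma gave all 29 arrays 1 mean per group and a shared spread, and the contrast was aged control minus young control. A gene is called changed at an adjusted p under 0.05 over all 11632 genes, and the study's own threshold, p up to 0.05 without adjustment, serves as a second, descriptive rule. These p-values measure the spread between the rats assayed here, which were bought in cohorts that the labels do not tie to single animals. Array medians ran from 179 to 198 (median 184) in young and from 181 to 194 (median 188) in aged control rats. Precision is set by the number of arrays and by the spread of each gene between rats. The 95% interval of a log2 fold change reached, at the median, 0.139 to each side. SE denotes the standard error of a log2 fold change.

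The array of young control 6 stands apart and touches several results. Across genes it correlated with the other arrays at a median of 0.974, and each other control array at 0.986 or more. The summed signal of 11 choroid plexus genes was 24136 on that array against 2093 to 2628 (median 2483) in the other 7 young rats and 2436 to 2908 (median 2623) in aged rats. For 17 meningeal genes the sums were 24865, 3008 to 3702 (median 3276) and 2919 to 3616 (median 3262). All 17 meningeal genes and 10 of the 11 choroid plexus genes were higher on that array than on any of the other 14. These counts are partly set by the choice of genes. Probe sets with a mean signal under 44.4 over all arrays were left out, and 1 very bright array can lift a dim gene past that cut. The choroid plexus gene F5, for example, was at 844 on young control 6 and at 20.4 to 35.6 in the other 7 young rats. Every comparison was repeated without young control 6. The markers of hippocampal neurons were present on all arrays: Prox1, which marks dentate granule cells, was at 1603 to 2000.1 with a median of 1799.5 in young and 1592 to 1937 with a median of 1729.9 in aged rats, and Wfs1, which marks CA1 pyramidal cells, at 1001 to 1457 with a median of 1308 in young and 1131 to 1428 with a median of 1223 in aged rats. The striatal marker Drd2 was dim, at 58.9 to 149 with a median of 81.2 in young and 54.5 to 118 with a median of 88.2 in aged rats, while Ppp1r1b, the 1 of 6 striatal genes at an unadjusted p up to 0.05, was at 576 to 855 with a median of 698 in young and 684 to 880.1 with a median of 799 in aged rats (0.15, SE 0.067). Whether tissue beyond the hippocampus differed in amount was not tested.

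Of the PIO arrays, which enter this comparison through the shared spread, 2 go against their labels. The array labelled young PIO 1 had the highest signal of the 8 young PIO arrays for 294 (58.7%) of the 501 genes that were higher in aged control rats at an unadjusted p up to 0.05, while each other young PIO array had it for 3.99% to 9.58% of them. The array labelled aged PIO 1 had the lowest signal of the 6 aged PIO arrays for 204 (40.7%), and each other aged PIO array for 5.39% to 21.0%. Over all genes tested, young PIO 1 was highest for 19.1% and aged PIO 1 lowest for 16.6%. For the 240 genes lower in aged control rats the shares were smaller. Young PIO 1 was lowest for 29.6% of them (14.6% of all genes) and aged PIO 1 highest for 37.1% (20.9% of all genes). Jhy was at 183 on young PIO 1 and 112 to 140.0 on the other 7 young PIO arrays, and 138 on aged PIO 1 and 148 to 202 on the other 5 aged PIO arrays. Fcgr2b was at 350.0 on young PIO 1 and 182 to 224 on the other 7 young PIO arrays, and 222 on aged PIO 1 and 304 to 503 on the other 5 aged PIO arrays. For both genes young PIO 1 lay among the other aged and aged PIO 1 at or below the highest of the other young PIO arrays. Their median correlations with all other arrays, 0.988 and 0.987, were like those of the other PIO arrays (0.986 to 0.989). Whether the labels of these 2 arrays were exchanged was not tested, and the labels were kept. The results they touch were repeated without both, a choice made after the data were seen. Since values that follow age singled them out, leaving them out narrows the spread of such genes and widens the difference on PIO by construction, so that those versions are descriptions.

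Of the 11632 genes, 3 passed the adjusted threshold (0.0258%): Jhy and Cdh23 rose and Lpl fell in aged rats. Jhy is required for normal motile cilia of the ventricle lining in mice. Its signal was 110.0 to 155 with a median of 124 in the 8 young rats and 173 to 221 with a median of 187 in the 7 aged rats, so that every aged rat lay above every young rat. On the log2 scale it rose by 0.60 (SE 0.089, limma adjusted p = 0.00313), a 1.52-fold difference. The signal of Cdh23, a cadherin of the tip links in hair cells, was 102 to 142 with a median of 117 in the 8 young rats and 172 to 224 with a median of 186 in the 7 aged rats. Again the groups did not overlap, and the gene rose by 0.69 (SE 0.13, limma adjusted p = 0.0473) on the log2 scale. Lpl encodes lipoprotein lipase, which releases fatty acids from circulating lipoproteins and is also made in brain. It was at 852 to 984 with a median of 894 in the 8 young rats and 571 to 768 with a median of 727 in the 7 aged rats, with each aged rat below the lowest young rat, and its log2 fold change was -0.36 (SE 0.065, limma adjusted p = 0.0438). Without young control 6, Jhy kept its call (0.58, adjusted p = 0.0119 in limma), while Lpl and Cdh23 had the same direction and an adjusted p of 0.0642 each. Without the arrays labelled young PIO 1 and aged PIO 1 the adjusted p of limma was 8.3e-05 for Jhy, 0.000428 for Cdh23 and 0.00327 for Lpl.

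The 8 genes of smallest p next on the higher side, with a mean signal of at least 100, had adjusted p values of 0.0734 to 0.09 in limma and were not called. Gipr, the receptor of the incretin GIP, was at 62.5 to 101 with a median of 88.1 in young and 122 to 158 with a median of 128 in aged rats, a log2 fold change of 0.69 (SE 0.14). The groups did not overlap. Fcgr2b, the inhibitory receptor for immunoglobulin G, was at 144 to 239.7 with a median of 189.6 in young and 244 to 380.0 with a median of 315 in aged rats, also without overlap, and differed by 0.69 (SE 0.14). Slc9a3, a sodium and proton exchanger, was at 78.6 to 122 with a median of 107 in young and 132 to 214 with a median of 185 in aged rats, a difference of 0.76 (SE 0.17). The other 5 were the inhibitor of apoptosis Birc7 (0.64), the small GTPase gene Arl11 (0.60), Sall1 (0.29), a transcription factor that keeps microglial identity, the actin bundling plastin Pls1 (0.35) and the phosphatase Ptp4a3 (0.30). Except for Pls1, where 6 of 7 aged rats exceeded the highest young rat, these 8 genes separated all aged from all young rats. Of all genes 0.206% did so, but these 8 were picked by small p on the same arrays, which largely presets such separation. With the 15 control arrays alone all 8 passed, at adjusted p values of 0.00463 to 0.0263 in limma.

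On the lower side, Lpl was followed by Sema3c, a secreted semaphorin that guides axons. Its signal was 617 to 789 with a median of 707 in young and 483 to 669 with a median of 529 in aged rats, with 6 of 7 aged rats below the lowest young rat, and its log2 fold change was -0.40 (SE 0.080, limma adjusted p = 0.0734). Nrep, which encodes a small protein expressed in regenerating neurons, was at 1676 to 2059.9 with a median of 1809 in young and 1266 to 1661 with a median of 1493 in aged rats. The groups did not overlap, and the difference was -0.29 (SE 0.073). Cask, a scaffold protein of synapses, differed by -0.22, the mitochondrial arginase Arg2 by -0.22, the zinc finger gene Zfp64 by -0.32 and the thyroid hormone transporter Slco1c1 of the blood-brain barrier by -0.15. A dimmer probe set of Cask gave -0.14. Ptpro, a receptor tyrosine phosphatase, differed by -0.26, the DNA glycosylase Tdg by -0.15 and Wdcp by -0.23. The adjusted p of these 9 genes was 0.0734 to 0.418 in limma, so that none was called.

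**Figure D1:**
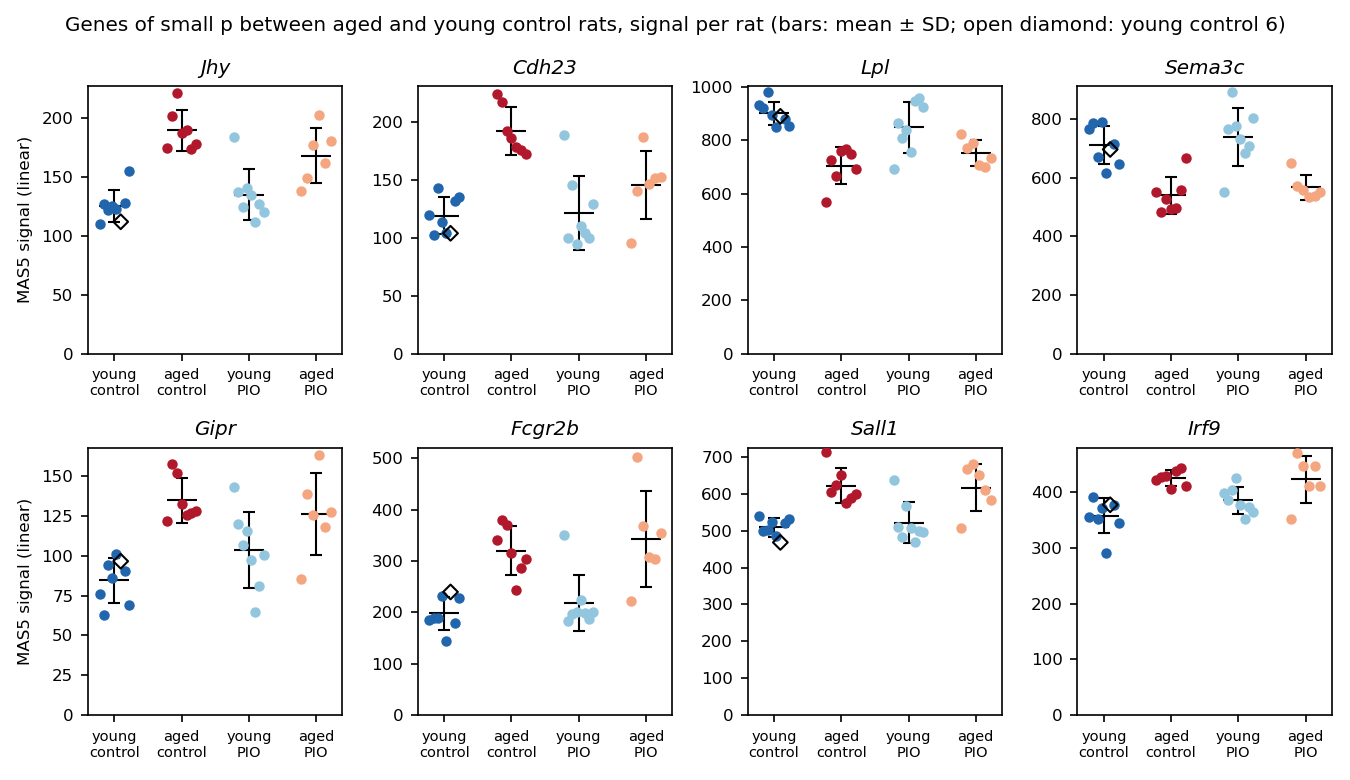
MAS5 signal (linear axis from 0) of 8 genes of small p on each array, by group, with young control 6 as an open diamond and mean ± SD as bars. All 7 aged control rats lie above all 8 young control rats for Jhy, Cdh23, Gipr, Fcgr2b, Sall1 and Irf9 and below them for Lpl, while 6 of 7 lie below them for Sema3c. The PIO groups, with the arrays labelled young PIO 1 and aged PIO 1 included, are shown for comparison.

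The unadjusted threshold was passed by 741 genes, where 5% of all tested would be 582: 501 higher (4.31%) and 240 lower (2.06%) in aged rats. Their median absolute log2 fold change was 0.19. After each array was centred on its median, 423 of 749 such genes were higher (56.5%, against 67.6% as deposited). Without young control 6 the numbers were 601 higher (5.17%) and 260 lower (2.24%), and 594 genes were shared by both versions. The groups did not overlap for 24 genes (0.206%), 22 of them higher in aged rats, and for 43 once young control 6 was left out.

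The number of called genes depended on which arrays set the spread. With the 15 control arrays alone, 18 genes passed the adjusted threshold, 16 higher and 2 lower, and with young control 6 left out as well 38 did (0.327%), 35 higher and 3 lower. These 38 included all 18 and the 3 called with 29 arrays. With all arrays but the 2 labelled young PIO 1 and aged PIO 1, 32 genes passed (0.275%), 28 higher and 4 lower, among them all 3 and 15 of the 18. With young control 6 also left out, 56 passed (0.481%), 51 higher and 5 lower. The versions of 38, 32 and 56 genes were chosen after the data were seen. Leaving out 1 PIO rat in turn, which changes the spread alone, gave 15 genes without aged PIO 1, 13 without young PIO 1 and 1 to 4 without any other. Among the 38 were 4 microglial genes (Sall1, Cd53, Tyrobp and Fcer1g), 3 of MHC class II (RT1-Ba, Cd74 and RT1-Da) and 2 of Fc receptors and their signalling (Fcgr2b and Plek), and 27 were in none of the lists. On young control 6, 18 of the 38 were higher than in any other young rat. Several of these 27 are known from myeloid cells, chosen for mention after their values were seen: Gpnmb, a glycoprotein of phagocytes, differed by 0.52 over all 8 young rats and by 0.60 without young control 6 (adjusted p = 0.0142 in limma on the 14 arrays), Ifi30, a lysosomal thiol reductase of antigen processing, by 0.26 and 0.33 (adjusted p = 0.0269) and the lectin receptor Cd302 by 0.38 and 0.44 (adjusted p = 0.00339). The 3 lower ones were Lpl, Sema3c and Ptpro.

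Genes were further grouped in 43 lists for cells, adjoining tissues and pathways, and 618 of their 784 genes were tested. Another 64 were among the dimmest 25% of probe sets and 102 had no probe set with that symbol. The counts of members at an unadjusted p up to 0.05 are read against the 4.31% of all genes that were higher and the 2.06% that were lower, and medians against the median over all genes, 0.00025 on the log2 scale. Besides the genes named by rule, list members at an unadjusted p up to 0.05 with or without young control 6, all class II genes and single genes called on the control arrays alone are named, a choice made after their values were seen. With 29 arrays, Jhy, counted among the ependymal genes, was the 1 list member called. In bulk tissue a higher number of cells of a type and more RNA per cell cannot be told apart.

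**Figure D2:**
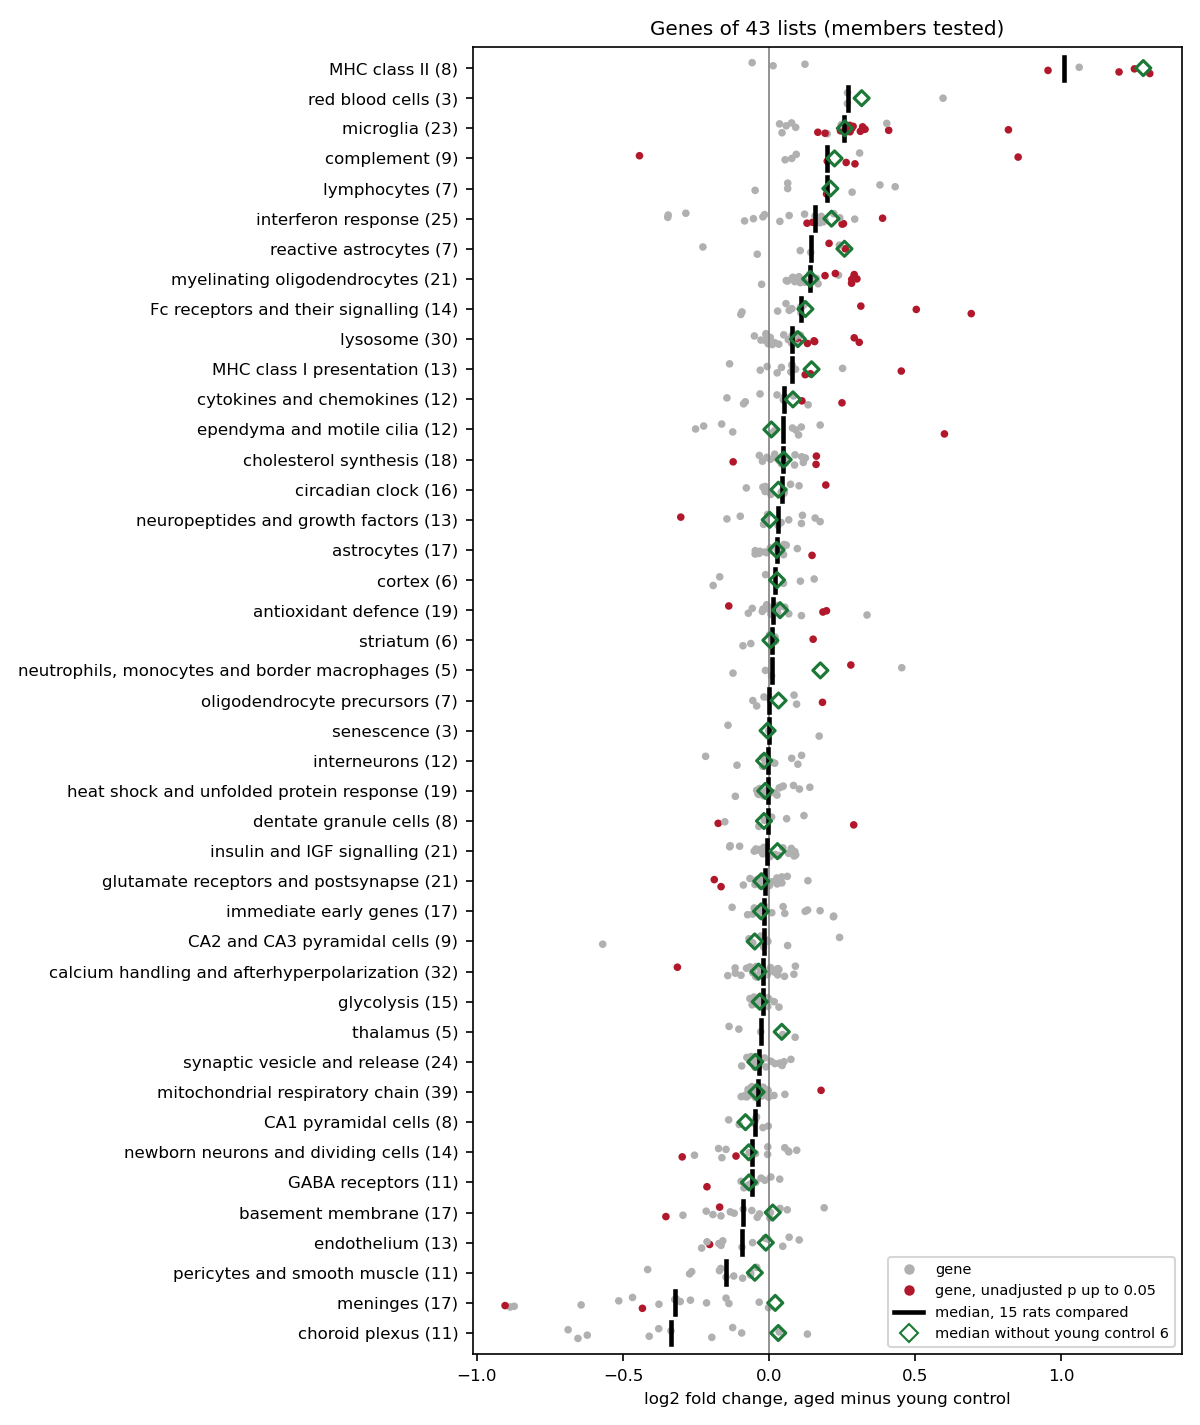
log2 fold changes, aged minus young control, of the tested genes of 43 lists (number in brackets), ordered by median. Points are genes, red at an unadjusted p up to 0.05; black bars are medians over all 15 rats and open green diamonds medians without young control 6. MHC class II stands farthest to the right, microglia lie wholly right of 0, and the medians of meninges and choroid plexus move from below -0.3 to near 0 when that array is left out.

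Microglial genes had higher signals in aged control rats, though none was called with 29 arrays; Sall1, Tyrobp and Fcer1g were among the 32 called without the arrays labelled young PIO 1 and aged PIO 1. All 23 tested markers had positive log2 fold changes, from 0.036 to 0.82 with a median of 0.26, and 14 were at an unadjusted p up to 0.05. The summed signal of the 23 genes was 12593 to 14553 (median 14069) in young and 14700.4 to 18234 (median 17187) in aged rats, so that the sums did not overlap. The sum weighs bright genes most. By mean log2 signal the groups overlapped: young control 6, the highest young rat, was at 8.15, the lowest aged rat at 8.12 and the other young rats at up to 8.06. Gene by gene, 2 of the 23 did not overlap, against 0.206% of all genes. Leaving out young control 6 also gave 14 genes, of which Aif1 and Olfml3 replaced P2ry12 and Itgam, and a median of 0.26. Tyrobp, an adaptor protein that relays activating signals from Trem2 and other receptors, was at 145 to 231 with a median of 194 in young and 229.5 to 283 with a median of 253 in aged rats. Its log2 fold change was 0.41 (SE 0.10, limma adjusted p = 0.186), with 6 of 7 aged rats above the highest young rat. Sall1 was at 468 to 541 with a median of 511 in young and 574 to 714 with a median of 604 in aged rats, with no overlap, and differed by 0.29 (SE 0.063). Fcer1g, the signalling chain shared by Fc receptors, was at 907 to 1099 with a median of 1017 in young and 1105 to 1510.2 with a median of 1286 in aged rats, again with no overlap (0.33, SE 0.087). The tetraspanin Cd53 (0.26), the cathepsin Ctss (0.28) and the lysosomal protein Laptm5 (0.28) were among the others.

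Values varied among the defining markers of resting microglia. Csf1r, the receptor on which microglia depend, was at 718 to 871 with a median of 790.2 in young and 823 to 975 with a median of 886 in aged rats and differed by 0.19 (SE 0.066). Tmem119 differed by 0.28 and the purine receptor P2ry12 by 0.17, both at an unadjusted p up to 0.05. For Aif1 the value was 0.20 (SE 0.10), and for the fractalkine receptor Cx3cr1 0.044 (SE 0.10), with signals of 313 to 467 with a median of 368 in young and 333 to 432 with a median of 386 in aged rats that overlapped widely. Trem2, a receptor for lipids and apoptotic cells, had the largest microglial value, 0.82 (SE 0.29), on a dim and variable signal of 18.7 to 118 with a median of 68.7 in young and 87.1 to 130.1 with a median of 110.3 in aged rats.

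Several genes of complement and Fc receptors, which microglia carry, were also higher. Of 9 complement genes, 4 were higher and 1 lower at an unadjusted p up to 0.05, with a median of 0.20 and a summed signal of 6059 to 8062 (median 6813) in young, the highest of them young control 6, and 7376 to 9349 (median 7795) in aged rats. C3, the central component, was at 298 to 784 with a median of 457 in young and 453 to 1461 with a median of 829.8 in aged rats. Single rats of both groups spread widely, and its log2 fold change was 0.85 (SE 0.31, limma adjusted p = 0.541). The subunits of C1q were closer together: C1qa differed by 0.29, C1qb by 0.26 and C1qc by 0.20, with 5 of 7 aged rats above the highest young rat for each. The complement receptor C5ar1 was the member that was lower, at 62.3 to 104 with a median of 84.8 in young and 46.3 to 83.2 with a median of 56.2 in aged rats (-0.44, SE 0.17). Of 14 genes of Fc receptors and their signalling 3 were higher and 0 lower, with a median of 0.11: Fcgr2b, the pleckstrin Plek, at 130.3 to 189 with a median of 149 in young and 184 to 253 with a median of 222 in aged rats (0.50, SE 0.13), and the adaptor Blnk (0.31). Serping1, which inhibits C1, was at 849 on young control 6, above the 235 to 449.6 of aged rats, and its log2 fold change went from 0.31 to 0.56 without that array.

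MHC class II genes had the largest median of any list, in a comparison that young control 6 affected. The median over 8 tested genes was 1.01, and 1.28 without that array. At an unadjusted p up to 0.05, 4 were higher and 0 lower, and 5 were higher without it. The values fell in 2 sets: Cd74 and the chain genes at 0.96 to 1.30, and RT1-DMa, RT1-DMb and Ciita at -0.058 to 0.12. The median lies at the low end of the first set. Cd74 was at 114 to 183 with a median of 178 in the other 7 young rats, 661 in young control 6 and 298 to 671 with a median of 503 in aged rats. No other young control rat reached the lowest aged control rat, while young control 6 exceeded 6 of the 7 aged control rats. Its log2 fold change was 1.30 (SE 0.44, limma adjusted p = 0.507) with all young rats and 1.56 without that one (adjusted p = 0.193 over 28 arrays and 0.000716 over the 14 control arrays). The α chain gene RT1-Ba was at 49.7 to 71.9 with a median of 53.3 in the 7, 247 in young control 6 and 116 to 220.4 with a median of 157 in aged rats. It differed by 1.20 (SE 0.38), or 1.46 without that array, for which limma gave an adjusted p of 0.108 over 28 arrays and 0.000132 over 14. For RT1-Da, the other α chain, the corresponding signals were 82.8 to 170.2 with a median of 109, 534 and 205 to 516 with a median of 387, a log2 fold change of 1.25 or 1.52.

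The β chain genes were dimmer. RT1-Bb was at 41.2 to 91.1 with a median of 52.4 in the 7 young rats and 66.7 to 193 with a median of 158 in aged rats (0.96 with all young rats, 1.19 without young control 6). RT1-Db1 was at 7.80 to 39.4 with a median of 22.3 and 24.0 to 82.2 with a median of 56.1 (1.06 and 1.37), partly below the 44.4 that marks the dimmest 25% of probe sets. All of these young rats lay below that cut, so that RT1-Db1 passed the filter through brighter arrays. Both groups overlapped in both genes. The genes that load or edit peptides differed by far less: RT1-DMb by 0.12 (SE 0.080) and RT1-DMa by 0.014 (SE 0.065). The class II transactivator Ciita differed by -0.058, but its SE of 0.26 leaves the size open. It was dim, at 14.2 to 60.9 with a median of 34.0 on the young PIO arrays other than young PIO 1. On PIO it differed by 0.40, or by 0.55 without the arrays labelled young PIO 1 and aged PIO 1. The class II chains share sequence, and cross-hybridisation between their probe sets was not tested. RT1-Ba also has dimmer probe sets, with log2 fold changes of 0.24 and -0.083 at mean signals of 97.1 and 87.2, against 138 for the one used. On young control 6 the mean log2 signal of the list was 8.05, against 6.51 to 6.98 in the other young and 7.26 to 7.99 in aged rats. Meningeal and choroid plexus genes were high on the same array, and their part in its class II signal was not tested. The summed choroid plexus signal was 2436 to 2908 in aged rats and 2093 to 2628 in the other young rats. For meningeal genes the sums were 2919 to 3616 and 3008 to 3702. Ptgds, of both tissues and in no list, was higher in aged than in the other young rats, as given below. The part of such tissue in the class II signal of aged rats was not tested either.

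**Figure D3:**
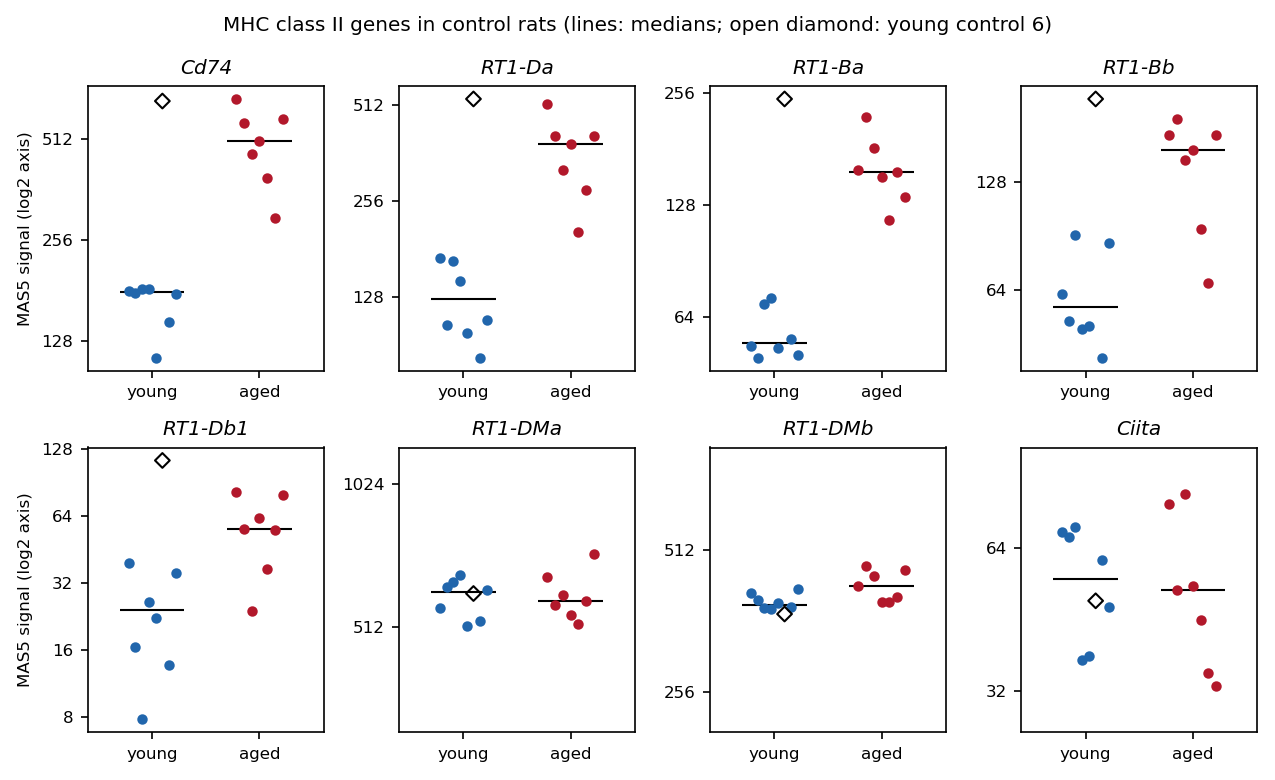
MAS5 signal (log2 axis) of 8 MHC class II genes on each array of young and aged control rats, with medians as lines and young control 6 as an open diamond. For Cd74, RT1-Da and RT1-Ba all 7 aged rats lie above the other 7 young rats and young control 6 lies among or above the aged rats. RT1-DMa, RT1-DMb and Ciita overlap.

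The class II genes are known to share a promoter module of X and Y boxes that is bound by the transcription factors Ciita works through, so the promoters of the chain genes were read from RefSeq (GRCr8), the 150 bases before each gene's start, 5′ to 3′. Capitals mark the letters GCAACNG (X box) and GATTGG (Y box), on either strand, and CCAATC is the Y box read from the other strand.
RT1-Ba, chr20:4576907-4577056, plus strand: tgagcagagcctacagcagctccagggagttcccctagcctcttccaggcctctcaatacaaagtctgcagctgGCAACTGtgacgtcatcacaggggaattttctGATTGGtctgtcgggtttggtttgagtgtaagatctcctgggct
RT1-Da, chr20:4515265-4515414, plus strand: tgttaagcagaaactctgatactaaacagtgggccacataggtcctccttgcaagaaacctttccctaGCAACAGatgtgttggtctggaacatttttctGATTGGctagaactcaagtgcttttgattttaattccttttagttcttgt
RT1-Db1, chr20:4560163-4560312, minus strand: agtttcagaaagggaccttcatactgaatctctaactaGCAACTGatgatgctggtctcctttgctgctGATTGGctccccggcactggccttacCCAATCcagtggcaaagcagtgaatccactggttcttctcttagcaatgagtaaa
RT1-Bb, chr20:4604119-4604268, minus strand: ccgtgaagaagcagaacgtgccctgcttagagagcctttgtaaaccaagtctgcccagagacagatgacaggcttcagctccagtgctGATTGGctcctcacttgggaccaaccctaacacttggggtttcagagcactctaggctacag
In the first 3, the X box starts 32, 32 and 31 bases before the Y box. Over the 250 bases before the start, GATTGG was in 13.3% and GCAACNG in 9.78% of 33469 promoters, and an X box 20 to 45 bases before a Y box on the same strand in 39 of them (0.117%). Promoters were held for 6 of the 8 tested class II genes. Of these, 5 had the Y box letters (the 4 above and RT1-DMa) and 3 the pair. The promoter of Cd74 held neither run of letters. RT1-DMa, with a Y box, differed by 0.014, and RT1-Bb, with a Y box alone in these letters, by 0.96. Arrays do not measure binding, and a match is only a description of the letters.

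Genes of the interferon response and of MHC class I presentation had smaller differences. Of 25 interferon response genes, 5 were higher and 0 lower, and 8 were higher without young control 6, with medians of 0.16 and 0.21. Irf9, the DNA-binding part of the complex that carries type I interferon signals, was at 291 to 392 with a median of 364 in young and 406 to 445 with a median of 429 in aged rats. The groups did not overlap, and the difference was 0.25 (SE 0.057, limma adjusted p = 0.09). A dimmer probe set of Irf9 gave 0.090. Rsad2, an antiviral enzyme, was at 89.5 to 133 with a median of 104 in young and 96.6 to 169.6 with a median of 143 in aged rats, with 6 of 7 aged rats above the highest young rat (0.39, SE 0.11). Irf7, a regulator of interferon genes, differed by 0.25, Ifi27 by 0.15 and Stat2, the partner of Irf9, by 0.13. Of 13 class I genes 3 were higher and 0 lower (4 without young control 6), with medians of 0.078 and 0.15. B2m, the light chain, was at 6298 to 8178 with a median of 6858 in young and 6942 to 8045 with a median of 7322 in aged rats (0.12, SE 0.056). RT1-M3-1, a class I heavy chain, differed by 0.14. Tap1, which pumps peptides into the endoplasmic reticulum, was dim, at 30.6 to 55.3 with a median of 48.0 in 7 young rats, 115 in young control 6 and 55.8 to 91.7 with a median of 75.1 in aged rats (0.45, or 0.62 without that array).

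Interferon-stimulated genes are known to carry an element that the complex of Irf9 binds. Its core letters, GAAANNGAA on either strand, are shown in capitals for 3 of the 5 genes above, in the same 150 bases of RefSeq GRCr8.
Rsad2, chr6:48788121-48788270, minus strand: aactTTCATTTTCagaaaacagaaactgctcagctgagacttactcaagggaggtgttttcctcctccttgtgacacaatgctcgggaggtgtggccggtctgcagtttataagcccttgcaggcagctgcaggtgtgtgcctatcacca
Irf7, chr1:205800024-205800173, minus strand: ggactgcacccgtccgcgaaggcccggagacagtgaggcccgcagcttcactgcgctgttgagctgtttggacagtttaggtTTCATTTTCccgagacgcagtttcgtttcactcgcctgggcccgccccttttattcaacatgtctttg
Ifi27, chr6:128355162-128355311, plus strand: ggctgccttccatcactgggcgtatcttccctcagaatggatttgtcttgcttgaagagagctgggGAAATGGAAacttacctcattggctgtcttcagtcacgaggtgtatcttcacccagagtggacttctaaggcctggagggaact
Where it lies on the other strand, its reverse complement is in capitals. Over 250 bases it was in 8.12% of all 33469 promoters, in 12 of the 19 tested interferon response genes with a promoter in the table and in 7 of 12 of class I presentation, among them B2m and Tap1. Irf9 and Stat2 were not among the 12. None of the 6 class II promoters held it.

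Lysosomal genes differed by small amounts. Of 30, 8 were higher and 0 lower at an unadjusted p up to 0.05, and 13 were higher without young control 6, with medians of 0.080 and 0.10. Npc2, which moves cholesterol out of the lysosome, was at 2573 to 3350.4 with a median of 2835 in young and 3079 to 3809.8 with a median of 3682 in aged rats (0.29, SE 0.076), with 5 of 7 aged rats above the highest young rat. The membrane protein Lamp1 was at 3853 to 4269 with a median of 3998 in young and 4095 to 4433 with a median of 4326 in aged rats (0.10, SE 0.033). The protease genes Ctsz (0.31), Ctsd (0.13) and Lgmn (0.10) and the progranulin gene Grn (0.095) were among the others. Of 12 cytokine and chemokine genes 2 were higher. Il18, a cytokine released by inflammasomes, was at 203 to 281 with a median of 237 in young and 247 to 313 with a median of 286 in aged rats (0.25, SE 0.077), and the alarmin Il33 at 814 to 955 with a median of 884 in young and 839 to 1014 with a median of 959.5 in aged rats (0.11, SE 0.049).

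Most markers of blood-borne immune cells were dim. Of 21 lymphocyte genes 12 were among the dimmest 25% and 7 were tested, with 1 higher and a summed signal of 575 to 717 (median 637) in young and 562 to 802 (median 729) in aged rats. That 1 was the T cell receptor chain Cd3e, at 127 to 178 with a median of 167 in young and 155 to 218 with a median of 190.1 in aged rats (0.20, SE 0.091), of which a dimmer probe set gave 0.088. Of the 7 lymphocyte genes 6 had positive values, with a median of 0.20 (0.21 without young control 6). The largest, Prf1 (0.43) and Ccl5 (0.38), were not at an unadjusted p up to 0.05, and Lck was the 1 negative gene (-0.048). Cd4, which rat microglia and macrophages also carry, was at 73.9 to 99.4 with a median of 81.9 in young and 71.0 to 128 with a median of 109 in aged rats, and Lck, a T cell kinase, at 158 to 182 with a median of 171 in young and 129.6 to 194 with a median of 171 in aged rats. Of 5 genes of neutrophils, monocytes and border macrophages, Csf3r was higher (0.28). Mrc1, which marks macrophages of the brain's borders, was at 37.4 to 64.7 with a median of 49.4 in 7 young rats, 249 in young control 6 and 36.3 to 70.5 with a median of 51.8 in aged rats, and Lyve1 at 37.5 to 112 with a median of 72.4 in young and 53.1 to 88.1 with a median of 68.2 in aged rats. Whether such cells have a part in the class II differences was not tested. Hemoglobin Hbb, a sign of blood left in the tissue, varied, at 1868 to 4499 with a median of 3685 in young and 2343 to 5449.7 with a median of 4037 in aged rats.

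Most myelin genes had slightly higher signals in aged rats. Of 21 genes of myelinating oligodendrocytes 20 had positive values, with a median of 0.14, and 7 were higher and 0 lower at an unadjusted p up to 0.05. Without young control 6 there were again 7, of which Aspa and Gsn replaced Gjb1 and Sox10. Myrf, the transcription factor that switches on myelin genes, was at 655 to 804 with a median of 777 in young and 662 to 1111 with a median of 918 in aged rats (0.29, SE 0.085), with 6 of 7 aged rats above the highest young rat. Ermn, a cytoskeletal protein of myelin, was at 1374 to 1946 with a median of 1724 in young and 1760.2 to 2287 with a median of 2005 in aged rats (0.28, SE 0.083), and its other probe sets gave 0.27 and 0.17. Mag, of the inner myelin wrap, differed by 0.28, the protease Klk6 by 0.29, the connexin Gjb1 by 0.30, Bcas1 by 0.23 and Sox10 by 0.19. The most abundant myelin marker, Mbp, was at 10489 to 14318 with a median of 12529 in young and 10913 to 13992 with a median of 11973 in aged rats and its log2 fold change was -0.025 (SE 0.060). Mog was at 1411 to 1981 with a median of 1703 in young and 1439 to 2235 with a median of 1991 in aged rats (0.17, SE 0.094). Young control 6 was lower than the other young rats in these genes (median log2 difference -0.23). Hapln2, a link protein of nodes of Ranvier outside the list, was at 584 to 848 with a median of 787 in young and 857 to 1122 with a median of 1017 in aged rats without overlap (adjusted p = 0.0422 in limma over the 14 control arrays without young control 6). In the precursors of these cells, 1 of 7 genes was higher, Olig1, at 2446 to 3019 with a median of 2876 in young and 2924 to 3437 with a median of 3269 in aged rats (0.18, SE 0.057).

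Among 17 astrocyte genes 1 was higher, Gfap, the intermediate filament known from reactive astrocytes. It was at 7473 to 8578 with a median of 7826 in young and 7802 to 9829 with a median of 9052 in aged rats, with 4 of 7 aged rats above the highest young rat (0.15, SE 0.064). The water channel Aqp4 differed by 0.050 (SE 0.056) and the glutamate transporter Slc1a2 by -0.048 (SE 0.074), and the list's median was 0.026. Genes of reactive astrocytes depended on young control 6, on which they were higher than in the other young rats by a median of 0.75: 2 of 7 were higher with that array, Stat3 (0.21) and S1pr3 (0.26), and 4 without it, Stat3 (0.27), Hspb1 (0.33), Cp (0.40) and Vim (0.26). With all young rats a dimmer probe set of Stat3 gave 0.12.

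Genes of neurons and synapses had medians close to 0. None of 24 genes of synaptic vesicles and release was at an unadjusted p up to 0.05, with 17 negative values and a median of -0.036. The 2 of smallest p were Nsf, which takes SNARE complexes apart (-0.061, SE 0.031), and the granin Scg2 (-0.065, SE 0.037). Without young control 6 both were at an unadjusted p up to 0.05, at -0.074 and -0.083. Of 21 glutamate receptor and postsynaptic genes 2 were lower (median -0.015). Grm7, a presynaptic metabotropic receptor, was at 492 to 636 with a median of 561 in young and 402 to 548 with a median of 509.9 in aged rats (-0.19, SE 0.062). Gria1, an AMPA receptor subunit, was at 1652 to 1930.0 with a median of 1811 in young and 1441 to 1943 with a median of 1612 in aged rats (-0.16, SE 0.058), with 5 of 7 aged rats below the lowest young rat and 1 above the highest. Of 11 GABA receptor genes Gabra3 was lower, at 206 to 273 with a median of 242 in young and 183 to 231 with a median of 203 in aged rats (-0.21, SE 0.10), and the median was -0.059. It was at -0.20 and no longer passed without young control 6, while Gabra5 did (-0.10).

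Slices from the middle of the same hippocampi were used for recordings of the calcium-dependent afterhyperpolarization. Of the genes of calcium handling and that current, 32 were tested. The median was -0.019 and 1 was lower, Camk4, a nuclear kinase activated by calcium and calmodulin. It was at 295 to 365 with a median of 322 in young and 174 to 359 with a median of 251 in aged rats, with 5 of 7 aged rats below the lowest young rat (-0.31, SE 0.11), and a dimmer probe set of it gave -0.083. The channel gene Hcn2 had the next smallest p (0.090, SE 0.074). Among 13 neuropeptide and growth factor genes Adcyap1, which encodes the peptide PACAP, was lower, at 415 to 498 with a median of 467 in young and 253 to 518 with a median of 363 in aged rats (-0.30, SE 0.12), with 1 aged rat above all young rats, and Igf1, a growth factor, was higher once young control 6 was left out (0.17). A dimmer probe set of Adcyap1 gave -0.19. Of 17 immediate early genes, which follow neuronal activity, 0 were at an unadjusted p up to 0.05; Arc was at 326 to 781 with a median of 494 in young and 409 to 787 with a median of 606 in aged rats (0.17, SE 0.18) and Fosb differed by 0.22 (SE 0.15).

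Of 8 dentate granule cell genes 1 was lower and 1 higher. Calb1, the calcium buffer calbindin, was at 2295 to 2982 with a median of 2537 in young and 1961 to 2567 with a median of 2164 in aged rats (-0.17, SE 0.070), with 4 of 7 aged rats below the lowest young rat, and the desmosomal gene Dsp was at 171 to 348 with a median of 247 in young and 278 to 360.2 with a median of 306 in aged rats (0.29, SE 0.13). Prox1 differed by -0.035 (SE 0.049). All 8 genes of CA1 pyramidal cells had negative values (median -0.047), and 0 were at an unadjusted p up to 0.05. Without young control 6, 7 of the 8 were negative with a median of -0.081, and Pou3f1, a transcription factor, was lower (-0.13). Of 14 genes of newborn neurons and dividing cells 2 were lower and 0 higher, with a median of -0.057. These were Sox4, at 975 to 1131 with a median of 1079 in young and 931 to 1065 with a median of 967 in aged rats (-0.11, SE 0.042), and the dim Sox11, at 50.8 to 75.9 with a median of 62.7 in young and 36.6 to 62.0 with a median of 57.4 in aged rats (-0.30, SE 0.14), both transcription factors of young neurons. Sox4 also passed without young control 6 (-0.10), and Sox11 did not (-0.27). Dimmer probe sets of Sox4 gave -0.066, -0.15 and -0.0088, none of them at an unadjusted p up to 0.05. Doublecortin, Dcx, their usual marker, was at 231 to 342 with a median of 283 in young and 213 to 297 with a median of 252 in aged rats (-0.16, SE 0.090). A further 5 genes of that list were among the dimmest 25% of probe sets. For interneurons the median over 12 genes was -0.0022, and Gad1, which makes GABA, differed by -0.022 (SE 0.049).

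Metabolic genes differed little. Of 39 genes of the respiratory chain 36 had negative values, with a median of -0.037, while 1 was at an unadjusted p up to 0.05 and higher, Cox5a (0.18, SE 0.080). Cox5a (0.16) no longer passed without young control 6, and Ndufs1 was the 1 that did, lower at -0.075. Of 15 glycolytic genes 12 were negative and 0 passed (median -0.022), and Ldha was lower without that array (-0.087). Of 18 genes of cholesterol synthesis 2 were higher and 1 lower: Fdft1, which makes squalene, at 1001 to 1165 with a median of 1049 in young and 1012 to 1319.7 with a median of 1205 in aged rats (0.16, SE 0.045), the regulator Srebf2 (0.16, SE 0.072) and Cyp51 (-0.12, SE 0.057). A dimmer probe set of Fdft1 gave 0.072. Of 16 clock genes Bhlhe41 was higher, at 1860.2 to 2336 with a median of 2152 in young and 2293 to 2603 with a median of 2511 in aged rats (0.19, SE 0.051). Among 19 antioxidant genes Gstp1 (0.18) and Gpx3 (0.20) were higher and the cystine transporter Slc7a11 (-0.14) was lower. Once young control 6 was left out, Slc7a11 (-0.081) no longer passed and Nqo1, a quinone reductase, was also higher (0.15). None of 21 genes of insulin and IGF signalling, 19 of the heat shock and unfolded protein response or 3 of senescence was at an unadjusted p up to 0.05. The cell cycle inhibitor Cdkn1a was at 161 to 331 with a median of 212 in young and 142 to 329 with a median of 263 in aged rats (0.17, SE 0.16).

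Genes of the tissues around the hippocampus had medians below 0 that rested on young control 6. With it, the median was -0.34 for 11 choroid plexus genes and -0.32 for 17 meningeal genes, all 17 negative. Without it, the medians were 0.032 and 0.021. Ttr, the transthyretin of the choroid plexus, was at 131 to 282 with a median of 233 in the 7 other young rats, 12356 in young control 6 and 122 to 364 with a median of 270.5 in aged rats, and its log2 fold change went from -0.65 to 0.088. For Ogn, a proteoglycan of the meninges, the signals were 121 to 154 with a median of 135, 3415 and 129 to 153 with a median of 143, with -0.51 and 0.066. Ptgds, the prostaglandin D synthase of meninges and choroid plexus and in none of the lists, was at 3995 to 4560.1 with a median of 4199.9, 14622 and 4680.0 to 5330.2 with a median of 5131, so that its difference went from 0.023 to 0.25 (adjusted p = 0.0166 in limma over the 14 control arrays). Collagen Col3a1 was at an unadjusted p up to 0.05 in both versions: it was at 65.7 to 125 with a median of 107 in the 7 young rats, 1094 in young control 6 and 48.6 to 86.5 with a median of 69.8 in aged rats, a log2 fold change of -0.90 or -0.47. Dcn, another matrix gene, was so with that array alone (-0.43, or -0.25 without it). Once the array was left out, the transporter Slc13a3 (0.32) and fibromodulin, Fmod (0.27), of the meningeal list and Enpp2, the autotaxin of the choroid plexus (0.17), were higher at that threshold. Basement membrane (median -0.088 and 0.013), endothelium (-0.093 and -0.011) and pericytes and smooth muscle (-0.15 and -0.049) moved toward 0 in the same way. In the basement membrane Col4a5 (-0.35 and -0.23) and Agrn (-0.17 and -0.13) were lower in both versions at an unadjusted p up to 0.05, and without young control 6 fibronectin, Fn1 (0.20), and Col18a1 (0.40) were higher. Of the endothelial genes the receptor Tek was lower with that array alone (-0.20, or -0.11 without it), and von Willebrand factor, Vwf, was higher without it (0.24).

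The remaining lists had medians near 0 or few measured members. Of 12 genes of ependyma and motile cilia Jhy alone was called, and the median was 0.049. Foxj1, the master regulator of motile cilia, was at 41.6 to 91.6 with a median of 68.4 in 7 young rats, 178 in young control 6 and 52.7 to 104 with a median of 92.5 in aged rats (0.10, SE 0.19). For CA2 and CA3 pyramidal cells the median over 9 genes was -0.019, and their marker Grik4, a kainate receptor subunit, differed by -0.019 (SE 0.074). When young control 6 was left out the median was -0.049. For neutrophils, monocytes and border macrophages it went from 0.0087 to 0.18 over 5 genes, and for the thalamus from -0.028 to 0.044. Genes of the thalamus (5, median -0.028), striatum (6, 0.011) and cortex (6, 0.019), which a dissection can include, and of red blood cells (3, 0.27) included 1 at an unadjusted p up to 0.05, the striatal Ppp1r1b given above.

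**Figure D4:**
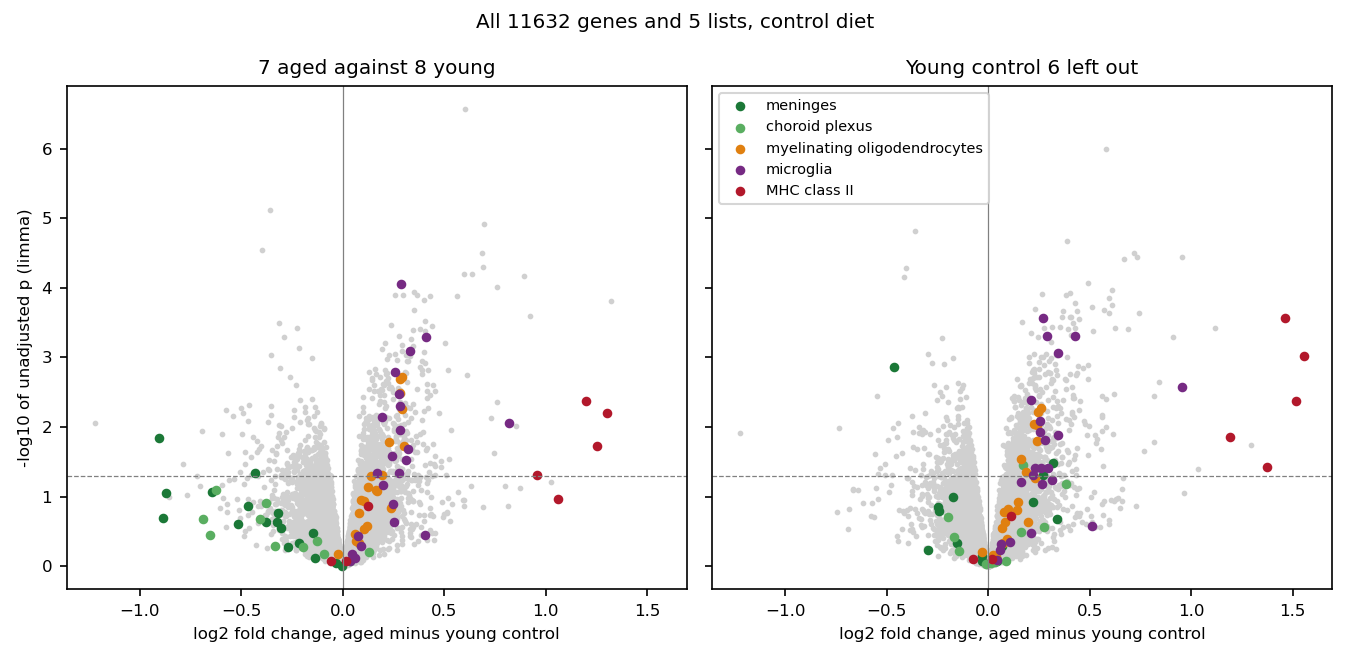
Log2 fold change, aged minus young control, against -log10 of the unadjusted p of limma for 11632 genes, with 5 lists in colour, using all 15 control rats (left) or leaving out young control 6 (right); the dashed line marks a p of 0.05. The meningeal and most choroid plexus genes lie left of 0 in the left panel and spread around 0 in the right panel, while the MHC class II chain genes move up and to the right.

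The same age difference in the rats on PIO was set beside it. On PIO, age is confounded with the drug concentration of the diet and with the dose. The group means of the 2 diets share no arrays, but both comparisons use the same spread per gene. A gene of small spread thus passes more easily on both diets, so that counts of genes passing on both are not independent agreement. On PIO, 626 genes were at an unadjusted p up to 0.05 (5.38%) and 0 were called in limma. For the interaction, the test of whether the age difference differed between diets, these numbers were 204 (1.75%) and 0, and no adjusted p was below 0.9997. Of the 501 genes higher with age on the control diet, 447 (89.2%) were also positive on PIO, where 54.3% of all genes were, and 157 were higher at an unadjusted p up to 0.05. Of the 240 lower genes, 177 (73.8%) were negative on PIO, where 45.7% of all genes were, and 17 were lower at that threshold. In all, 174 genes were past that threshold in the same direction on both diets, 23.5% of the 741 on the control diet and 27.8% of the 626 on PIO. The median log2 fold change of the higher genes was 0.20 on the control diet and 0.11 on PIO, and that of the lower genes -0.18 and -0.036. The genes were chosen on the control diet, so that larger values there are preset by the choice. Without the arrays labelled young PIO 1 and aged PIO 1, 954 genes were at an unadjusted p up to 0.05 on PIO (8.2%) and 65 were called (0.559%), 61 higher and 4 lower. Called were 22 genes when young PIO 1 alone and 7 when aged PIO 1 alone was left out. For the interaction the numbers without both were 211 (1.81%) and 0. Of the 501 higher genes 460 (91.8%, of all genes 52.6%) were then positive on PIO and 245 passed the unadjusted threshold, and of the 240 lower genes 188 (78.3%, of all genes 47.4%) were negative and 31 passed. Their median log2 fold changes on PIO were 0.16 and -0.056. Of the 32 genes called on the control diet without these arrays, 21 were among the 65 called on PIO.

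Of the 3 called genes, Jhy differed by 0.32 on PIO with all arrays and by 0.44 without the arrays labelled young PIO 1 and aged PIO 1 (limma adjusted p = 0.00645). For Cdh23 these values were 0.27 and 0.48 (adjusted p = 0.0279 in limma), and for Lpl -0.16 and -0.23 (adjusted p = 0.132). Fcgr2b differed by 0.69 on the control diet and by 0.64 on PIO, or 0.86 without those arrays, Sema3c by -0.40, -0.37 and -0.47, Tyrobp by 0.41, 0.45 and 0.59 and Cd74 by 1.30, 1.42 and 1.91. Zfp64 (-0.32, 0.040 and 0.013), Cask (-0.22, -0.0091 and -0.038) and Bhlhe41 (0.19, 0.053 and 0.095) were nearer to 0 on PIO in both versions. None of these genes passed the adjusted threshold for the interaction in either version (adjusted p = 0.9997 with all arrays for Jhy, Cdh23, Lpl and Zfp64 in limma). By list, the median for microglia was 0.26 on the control diet, 0.27 on PIO and 0.34 on PIO without those arrays. For MHC class II the 3 medians were 1.01, 1.27 and 1.69, for the interferon response 0.16, 0.21 and 0.25 and for complement 0.20, 0.26 and 0.36. For the lysosome they were 0.080, 0.10 and 0.13, and for myelin 0.14, 0.11 and 0.20. The Cd74 signal spread widely on PIO. Without the arrays labelled young PIO 1 and aged PIO 1, it was at 86.1 to 639 with a median of 162 in young PIO rats. In aged PIO rats it was then at 371 to 2443 with a median of 510, so that the groups overlapped.

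**Figure D5:**
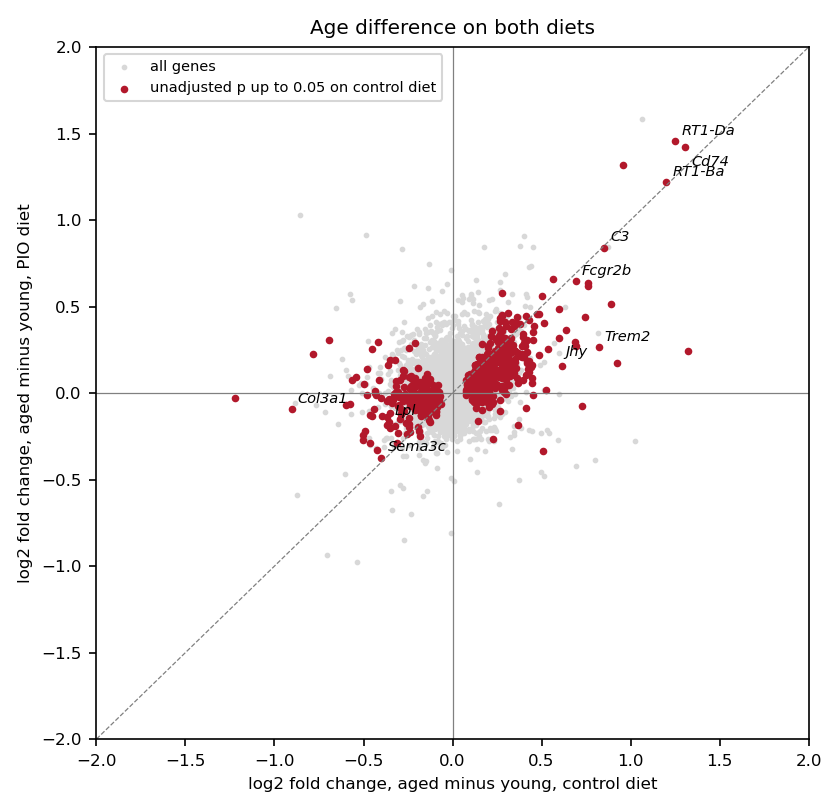
Log2 fold change between aged and young rats on the control diet (x axis) and on PIO (y axis) for 11632 genes, with the 741 genes at an unadjusted p up to 0.05 on the control diet in red and equal values on the dashed line. All 14 PIO arrays are used. Cd74, RT1-Da, RT1-Ba, C3 and Fcgr2b lie near that line, Jhy, Lpl and Trem2 lie nearer to 0 on PIO, and most red points on the left lie near 0 on PIO.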

How the data were processed

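The deposited values are MAS5 intensities on a linear scale, 1 column per rat on the Affymetrix RAE230 2.0 array, which the authors computed with Gene Expression Console and scaled to a target of 500 (methods of the study). The value table holds 31099 probe sets. After removal of 57 controls, 20826 probe sets had 1 gene symbol, 436 had several and 9780 had none and were not named; 20760 of the symbols were current in RefSeq. Probe sets among the dimmest 25% by mean signal over 29 arrays (under 44.4) were left out, and the brightest probe set stood for each symbol, which left 11632 genes. MAS5 subtracts mismatch signal, so that dim genes are noisy and fold changes of dim genes are uncertain. Presence calls were not used here.

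Intensities were taken to log2 and fitted with limma 3.58.1 (R 4.3.3), with 1 mean for each of the 4 groups of age and diet and a shared spread (25 residual degrees of freedom). The contrasts were aged minus young on the control diet, the same on PIO, and their difference. P-values were adjusted by Benjamini-Hochberg over all genes. Tables and figures were made with Python 3.11.15, numpy 2.4.6, pandas 2.3.3 and matplotlib 3.10.9, and the fit was tested on simulated data. Groups came from the labels of age and diet. Alternatives were other scalings, filters, spreads, added constants, probe set rules, a subject block, the methods' pairwise comparison and leaving out each rat or the arrays labelled young PIO 1 and aged PIO 1.

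Genes were named by rule: called genes with a mean signal of at least 100, filled to 10 in each direction by smallest p, the 2 members of smallest p in a list, and the first 3 measured markers of each cell or tissue list. The comparison, the gene lists and the interest in young control 6 were chosen with earlier results of these data known. Promoter sequences came from RefSeq, build GRCr8.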

Additional observations from a re-analysis of the deposited data

Results flagged for a closer look

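Of 126 values, each tested within its group for a sample far from the others, 21 had one. Chance gives about 1 in 20 per value, but the values share arrays and are not independent, so that the count is a description. The values are log2 signals, averaged over the genes of a list or of a single gene such as Jhy. Young control 6 lay apart in 16 of the 21. In the lists of the borders and vessels its values were 10.1331 for meninges, 9.35415 for choroid plexus, 9.24784 for endothelium, 8.18423 for pericytes and smooth muscle and 8.97013 for basement membrane. In lists of immune and glial genes they were 8.80487 for MHC class I presentation, 9.19589 for complement, 8.05019 for MHC class II, 7.64564 for the interferon response, 7.74702 for neutrophils, monocytes and border macrophages, 8.88818 for reactive astrocytes, 10.2642 for the lysosome and 10.4392 for antioxidant defence. All of these lay above the other young rats, as did the thalamic genes at 8.53703, while CA1 pyramidal cells at 10.1285 lay below them. The mean of CA2 and CA3 pyramidal cells, 9.61537, was also above, but the median gene of that list was lower on young control 6 (log2 difference -0.16). Coch, of that list, was high on this array, and its log2 fold change with age went from -0.57 to -0.097 without it.

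Other rats were far from their group in 1 value each. Young control 1 was at 6.63431 for red blood cells, young control 4 at 9.08875 for neuropeptides and growth factors and young control 8 at 7.27364 for Jhy. Aged control 6 was at 8.564 for cytokines and chemokines and aged control 4 at 10.2946 for antioxidant defence.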

How the results depend on the processing

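The number of called genes, 3 with all 29 arrays, was small and moved with most settings. It was 18 with the 15 control diet arrays, 38 with those but young control 6, 32 without young PIO 1 and aged PIO 1, 56 without young control 6 as well (the last 3 chosen after seeing the data), 6 with a weight per array, 4 with a spread that follows the signal, 2 with each array centred on its median, and 1 with every probe set on its own, with no filter on dim probe sets, with the brighter 50% of probe sets or with the methods' pairwise comparison on log2 signals. It stayed at 3 with quantile normalization, with 16 added to every signal and with the methods' comparison on linear signals. Leaving out 1 rat gave 1 to 15 genes: 15 without aged PIO 1, 13 without young PIO 1, 1 to 4 without each other PIO rat (also chosen after seeing the data), 1 without aged control 1, 2, 3 or 7 or without young control 1, 2, 3, 4, 5 or 6, 2 without aged control 4, 6 or 8, 4 without young control 7 and 5 without young control 8. Over all alternatives the adjusted p of limma was 8.3e-05 to 0.0358 for Jhy, 0.000428 to 0.2 for Cdh23 and 0.00327 to 0.125 for Lpl. Genes at an unadjusted p up to 0.05 numbered 741, 618 to 861 when 1 rat was left out and 1264 with every probe set on its own. The cause of these shifts was not tested, except that fewer or more features were tested under the filters. Of the values of named genes, 4334 kept their direction and side of the threshold, 84 gained and 45 lost the call and 3 reversed: Rgs16, a thalamic gene at -0.10, had 0.04 (0.0435657) without young control 6, over 28, 26 or the 14 control arrays, and its values without 1 rat ran from -0.184204 to 0.0435657. The 1848 medians of lists moved by less than the spread between rats, which young control 6 itself widens, since the medians of choroid plexus and meninges lay near 0 without it.

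With the subject number as a replicate block, 3 genes were called: Jhy and Lpl (adjusted p = 0.0358 each in limma) and Car6, which was named after its values were seen. Cdh23 lost its call (adjusted p = 0.2). At an unadjusted p up to 0.05 were 829 genes. Deviations of aged and young rats of the same number correlated at over 0.1 in 5 of 7 pairs and at -0.011 and 0.044 in the other 2. Rats of unlike number were not compared in this way, so these values cannot settle whether the numbers mark a shared batch. The labels do not state a pairing, and the rats were not treated as paired. Signal over background limits the dim genes, such as RT1-Db1, Ciita, Trem2 and Sox11.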
